A study of Callithrix jacchus with 20 samples.

Results

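Transcript levels of 10 genes known from stratified epithelium were followed in common marmoset embryoid bodies (EBs) and in the stem cell lines from which the EBs were grown. The genes were the regulators TP63 and DLX3, the basal keratins KRT5, KRT14 and KRT15, the stress keratin KRT6A, the desmosomal cadherin DSG3, and the late differentiation genes SPRR3, PRR9 and CNFN. They are 10 of the 22803 genes in the EB table and of the 22330 in the stem cell table, and all 10 were present in both. The members were chosen by their measured TPM in the EBs and stem cells, so their rise from stem cell to EB is given below as a description, and counts of calls for it support nothing.

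The study derived embryonic stem cells from embryos made by somatic cell nuclear transfer (SCNT) and asked how these ntESCs compare with embryonic stem cells from fertilized embryos. The 20 RNA-seq libraries comprised 4 control ESC lines (#13 and #37 from natural mating, #15 and #17 from IVF), 3 ntESC WT lines (#30, #53 and #61, from wild-type fibroblasts), 4 ntESC GFP lines (#24, #50, #54 and #55, from fibroblasts carrying a CAG-EGFP transgene, whose CAG promoter is active in most tissues), 1 culture of wild-type donor fibroblasts from skin, and the EBs of 8 of these lines. The EB groups were control EB (#13, #37 and #17), ntEB WT (#30, #53 and #61) and ntEB GFP (#24 and #50). The SCNT embryos had received Kdm4d mRNA, trichostatin A and, for line derivation, a G9a inhibitor, whereas the control lines came from embryos without nuclear transfer. EBs were grown for 30 days in non-adherent dishes. Control ESCs were sampled between passages 7 and 21 and ntESCs between passages 5 and 10. Every line gave 1 library per stage. The replicate is thus the line. Some lines within a group may go back to 1 donor, and p-values then cover line-to-line spread alone.

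In a stratified epithelium such as the epidermis, p63 (the product of TP63) maintains the basal layer, whose cells carry the keratin pair KRT5 and KRT14 and rest on a basement membrane. Cells that leave this layer strengthen their desmosomes, switch keratins and, late in the process, make the precursors of the cornified envelope, among them the small proline-rich proteins. DLX3 is a homeobox factor of the differentiating epidermis and, in the mouse, of the placenta.

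Levels are given as TPM, transcript abundance corrected for gene length and library total, so they can be set side by side between genes. TPM keeps no read depth, and no counting interval was computed. The commonest ratio between low values put the depth of the EB libraries, relative to control #13, between 0.787 in GFP #24 and 1.33 in GFP #50. The ntEB GFP #24 library stood apart from the other EBs. Its 10 pluripotency genes summed to 5996 TPM, against 42.6 to 232 TPM in the other 7 libraries, with POU5F1 at 1247 TPM and NANOG at 831 TPM. The main ntEB GFP values and the correlations are therefore also given without GFP #24. GFP #50, the GFP line that then remains, summed to 202 TPM for these 10 genes, within the control range. It held all 10 at 1 TPM or more, against 4 to 6 in the control and WT lines. Over 9 of them, its median log2 difference from control EB was 4.01. In bulk samples, fewer cells of a type and less RNA per cell cannot be told apart.

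The markers of a stratified epidermis were mixed in these EBs, so that name was not used for them. KRT5, the obligate partner of KRT14 in basal keratinocytes, was below 1 TPM in every EB library and at 0 in 3 of them. KRT1, LORICRIN and FLG, which mark the suprabasal and cornified epidermis, were not measured under these symbols, so they show nothing either way. KRT13, a mucosal suprabasal keratin, stayed below 1 TPM throughout. Going the other way, the suprabasal keratins KRT10 and KRT80 were expressed, with values given below. The envelope gene IVL reached 24.3 TPM in control EB #37 but only 0.681 TPM in ntEB WT #30. The simple epithelial keratin KRT18 ranged from 549 to 3105 TPM in the EBs and KRT8 from 299 to 1362 TPM. Both were already high in the ESC and ntESC lines, KRT18 at 2365 to 5755 TPM and KRT8 at 1236.5 to 3520 TPM. Their levels in EBs thus do not mark a simple epithelium there. The 10 genes are therefore named by their symbols below, and no cell type is assigned to them.

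SPRR3 and PRR9 supplied most of the signal. The 10 genes summed to 977, 3012 and 1015 TPM in control EBs #13, #37 and #17. The sums were 78.1, 257 and 1456 TPM in ntEB WT #30, #53 and #61, and 62.5 and 320 TPM in ntEB GFP #24 and #50. Thus 4 of the 5 ntEB lines lay below every control and ntEB WT #61 lay between the controls. SPRR3 and PRR9 together made up 82.9% to 95.7% of each sum, and the other 8 genes gave 66.6 to 130 TPM in control EBs and 8.25 to 94.8 TPM in ntEBs.

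**Figure D1:**
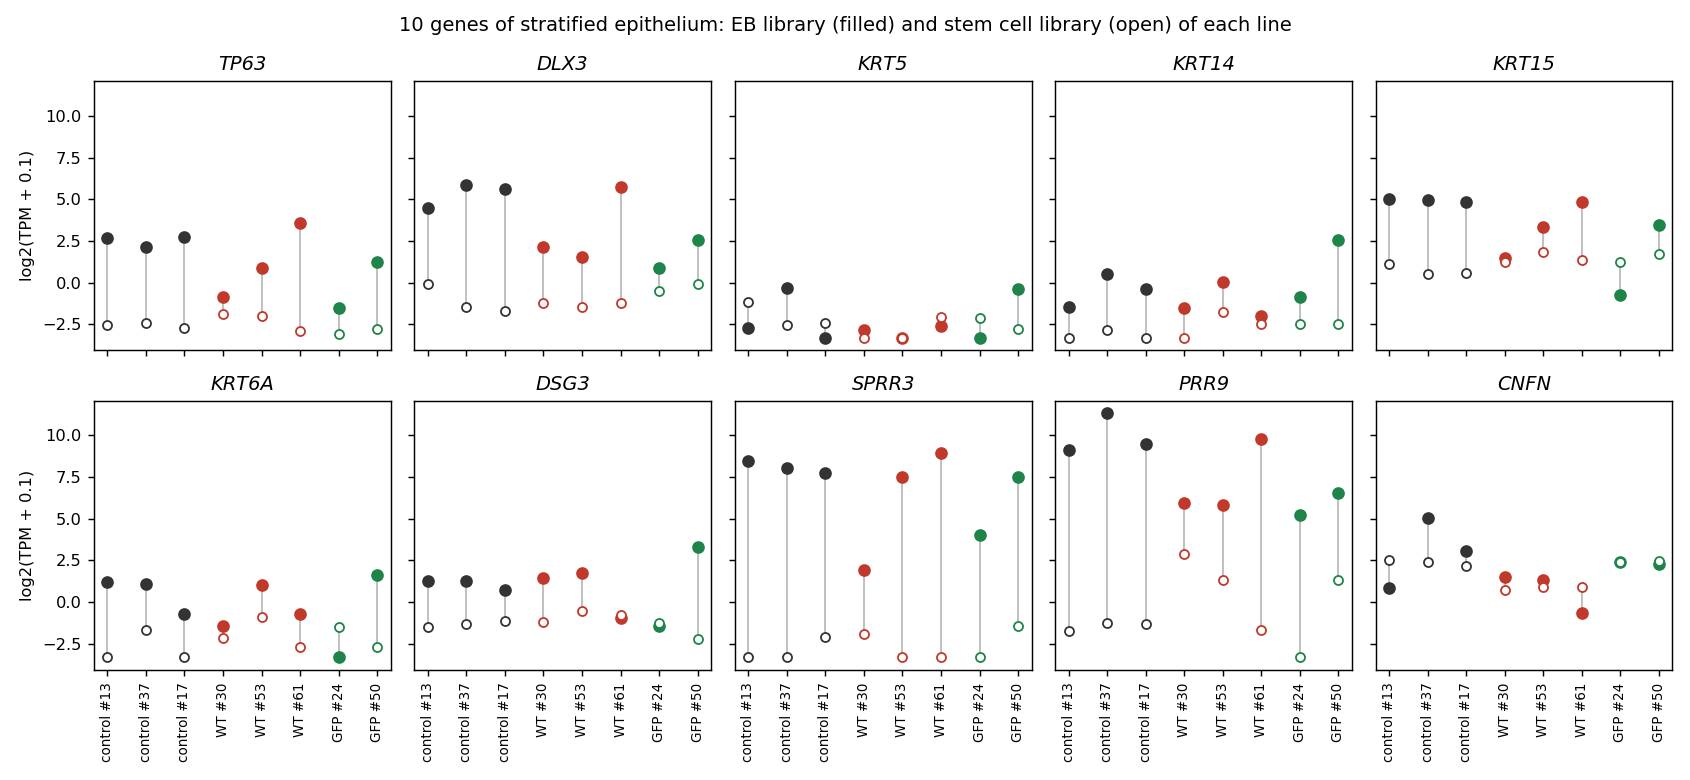
Level of each gene as log2(TPM + 0.1) in the EB library (filled) and in the stem cell library (open) of the same line, 1 panel per gene, with control lines in black, WT lines in red and GFP lines in green. SPRR3 and PRR9 rise in 8 of 8 lines, KRT5 stays near the floor, and TP63, DLX3, KRT15 and PRR9 are high in the 3 controls and in WT #61.

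Among the regulators, TP63 was expressed at 6.16, 4.23 and 6.63 TPM in control EBs #13, #37 and #17. It was at 0.457, 1.75 and 11.7 TPM in ntEB WT #30, #53 and #61 and at 0.250 and 2.25 TPM in ntEB GFP #24 and #50. The controls lay close together, the highest level was in ntEB WT #61, and the other 4 ntEB lines were below all controls. In stem cells TP63 was 0.0170 to 0.169 TPM, so it was at least 2-fold higher in the EB of all 8 lines.

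DLX3 reached 22.1, 56.9 and 48.5 TPM in control EBs #13, #37 and #17, 4.33, 2.85 and 53.3 TPM in ntEB WT #30, #53 and #61, and 1.71 and 5.68 TPM in ntEB GFP #24 and #50. Again ntEB WT #61 was within the control range, and the other 4 ntEB lines were below it. Stem cell lines held 0.213 to 1.13 TPM. The fibroblast library held 17.0 TPM of DLX3, although TP63 was only 0.105 TPM there.

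The 3 basal keratins did not move together. KRT15, a type I keratin of basal cells, stood at 31.8, 30.5 and 28.8 TPM in control EBs #13, #37 and #17. It was 2.69, 9.88 and 28.2 TPM in ntEB WT #30, #53 and #61 and 0.485 and 10.7 TPM in ntEB GFP #24 and #50. The control lines were tight (30.4 ± 1.48 TPM, SD, n = 3) and all 5 ntEB lines were below them, #61 by a small margin. KRT15 was already detected in stem cells (0.444 to 3.41 TPM), and in line #24 its EB level was below that of its own ntESCs (2.25 TPM).

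KRT14 was low in most EBs, at 0.265, 1.33 and 0.680 TPM in control EBs #13, #37 and #17. It was 0.251, 0.912 and 0.147 TPM in ntEB WT #30, #53 and #61, 0.448 TPM in GFP #24 and 5.87 TPM in GFP #50. Only GFP #50 exceeded the control range. KRT5, its partner, was highest at 0.695 TPM in control EB #37 and 0.654 TPM in GFP #50, and was at least 2-fold higher than in stem cells in 2 lines and at least 2-fold lower in 2. Reads that map to more than 1 location were dropped, so KRT14 and KRT6A, which have near-identical relatives, may be undercounted.

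KRT6A, a keratin induced in wounded and hyperproliferating epidermis, measured 2.21, 1.98 and 0.517 TPM in control EBs #13, #37 and #17. It was 0.267, 1.91 and 0.498 TPM in ntEB WT #30, #53 and #61, listed at 0 in GFP #24 and 2.94 TPM in GFP #50. The groups overlapped. KRT5 and KRT6A lie next to each other in the RefSeq gene order of the marmoset assembly calJac240_pri, with 0 genes between them, yet only KRT6A passed 1 TPM.

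DSG3, which joins keratinocytes through desmosomes, was 2.31, 2.35 and 1.55 TPM in control EBs #13, #37 and #17. It was 2.58, 3.23 and 0.416 TPM in ntEB WT #30, #53 and #61, 0.266 TPM in GFP #24 and 9.83 TPM in GFP #50. Unlike TP63, it was low in WT #61 and highest in GFP #50, the line that also led for KRT14 and KRT6A.

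Of the late genes, SPRR3, a small proline-rich precursor of the cornified envelope that is prominent in oral and oesophageal epithelium, was listed at 345, 266 and 212 TPM in control EBs #13, #37 and #17. It was 3.64, 178 and 490 TPM in ntEB WT #30, #53 and #61 and 16.4 and 185 TPM in ntEB GFP #24 and #50. Only WT #30 and GFP #24 were far below the controls. WT #53 and GFP #50 came close to the lowest control although their TP63 was less than that of any control. In stem cells SPRR3 did not exceed 0.267 TPM.

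PRR9, a proline-rich protein gene of the same gene cluster, had the highest level of the 10 genes in 6 of 8 EBs. It measured 565, 2616 and 709 TPM in control EBs #13, #37 and #17. It was 61.1, 56.5 and 871 TPM in ntEB WT #30, #53 and #61 and 37.9 and 93.0 TPM in ntEB GFP #24 and #50. The 4 ntEB lines other than WT #61 were below the lowest control. PRR9 and DLX3 put the 8 EB lines in the same order (Spearman rho 1, Pearson r 0.972 on the log2 scale, n = 8 libraries, and rho 1 and r 0.966 without GFP #24), a description over libraries of which WT #61 and the controls form the upper end.

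SPRR3 and PRR9 have 6 genes between them in the RefSeq order and lie in the epidermal differentiation complex, the cluster that holds many cornified envelope genes. Between S100A11 and S100A9 the annotation lists 19 protein-coding genes, of which 9 were in the EB table. Of these, 6 averaged at least 1 TPM and 2, SPRR3 and PRR9, at least 100 TPM. IVL (involucrin), an envelope scaffold protein, was 5.03, 24.3 and 1.88 TPM in control EBs #13, #37 and #17, 0.681, 2.21 and 9.55 TPM in ntEB WT #30, #53 and #61, and 0.851 and 9.92 TPM in GFP #24 and #50. IVL was named after its values were seen.

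CNFN (cornifelin), another envelope component, behaved differently from both. It was 1.69, 32.5 and 8.14 TPM in control EBs #13, #37 and #17. It was 2.75, 2.38 and 0.529 TPM in ntEB WT #30, #53 and #61 and 5.09 and 4.68 TPM in ntEB GFP #24 and #50. The control lines alone spanned most of the range, and only control EB #37 was at least 2-fold above its own stem cells.

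Compared with the stem cells of the same line, TP63, DLX3, SPRR3 and PRR9 were at least 2-fold higher in 8 of 8 EBs, KRT14 in 7, and KRT15, KRT6A and DSG3 in 6. The number of the 10 genes that were at least 2-fold higher was 8, 10 and 8 in control EBs #13, #37 and #17, 6, 8 and 6 in ntEB WT #30, #53 and #61, and 5 and 9 in ntEB GFP #24 and #50. Over all genes, 15.5% to 22.2% were at least 2-fold higher in an EB. In the fit of both stages, 8 of the 9 genes that passed the filter of a mean of 0.5 TPM were called higher in control EBs (all genes 20.7%), 4 in ntEB WT (14.3%) and 4 in ntEB GFP (13.6%). With the 16 libraries from lines sampled at both stages, the members called were 7, 4 and 3 with the line as a replicate block, and 7, 4 and 2 without it. In ntEB GFP the count was 7 without GFP #24 and 0 without GFP #50. The members were chosen for this rise, and only 4 of them passed the same filter in stem cells alone, the others passing through the EBs in which they are high. These counts were thus fixed by the choice, and nothing is read from them.

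Between the EB groups, limma was run on log2(TPM + 0.1) for the 16621 genes that averaged 0.5 TPM or more, with Benjamini-Hochberg adjustment across all 16621. All members but KRT5 passed that filter. The test called 0 of the 9 in ntEB WT against control EB, where 0.00602% of all genes (1 gene) were called. It called 0 of the 9 in ntEB GFP against control EB, with 0.0120% (2 genes) called, and 0 of the 9 in ntEB WT against ntEB GFP, with 0.0180% (3 genes) called. At an unadjusted p under 0.05 there were 1, 3 and 0 members and 637, 1573 and 955 genes in the 3 comparisons. By a 2-fold rule on group means, the study's own, 4, 8 and 8 of the 9 members differed, against 15.2%, 27.0% and 20.7% of all genes, but that rule takes no account of the spread between lines. That no member was called does not show that the groups were alike. The members were chosen by their measured TPM in these same EBs. Their counts and medians beside those of all genes, here and in the EB comparisons below, are thus a description and support nothing. Single lines moved the counts over all genes, to 126 in ntEB WT without WT #61 and to 575 in ntEB GFP without GFP #50, with 0 members called in either.

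In ntEB WT, the 9 tested members had log2 fold changes below 0 with a median of -1.72, beside a median of -0.026 over all genes. PRR9 had a log2 fold change of -2.81 (SE 1.09, limma adjusted p = 0.984), DLX3 of -2.15 (SE 1.06) and TP63 of -1.30 (SE 1.13). The level of 1 line weighed heavily on these values. Without ntEB WT #61, PRR9 was at -4.11 (limma adjusted p = 0.0518), DLX3 at -3.45 (adjusted p = 0.0538) and TP63 at -2.48 (adjusted p = 0.159), still without a call. KRT15 was the 1 member of 9 whose WT and control lines did not overlap, where 5.28% of all genes lay lower without overlap.

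In ntEB GFP, the members had a median log2 fold change of -2.28, with 8 of 9 below 0, beside 0.20 over all genes. PRR9 (-4.09, SE 1.22), DLX3 (-3.61, SE 1.19) and KRT15 (-3.59, SE 1.27) each had a limma adjusted p of 0.528. In 5 of the 9 members, TP63, DLX3, KRT15, SPRR3 and PRR9, both GFP lines were below all 3 controls, against 14.0% of all genes. GFP #50 alone was below them in the same 5, where 32.5% of all genes were. Without the GFP #24 library, which leaves 1 GFP line assumed to vary like the other groups, the log2 fold changes were -3.45 for PRR9, -2.77 for DLX3, -1.49 for KRT15 and -1.27 for TP63, each with a limma adjusted p of 0.957, and the median over the 9 members was -0.71, beside -0.0095 over all genes. The 2-fold rule then counted 7 of 9 members and 19.5% of all genes. KRT14 had a log2 fold change of 1.29 (SE 1.16, limma adjusted p = 0.657), which GFP #50 set, since it was -0.44 without that line.

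**Figure D2:**
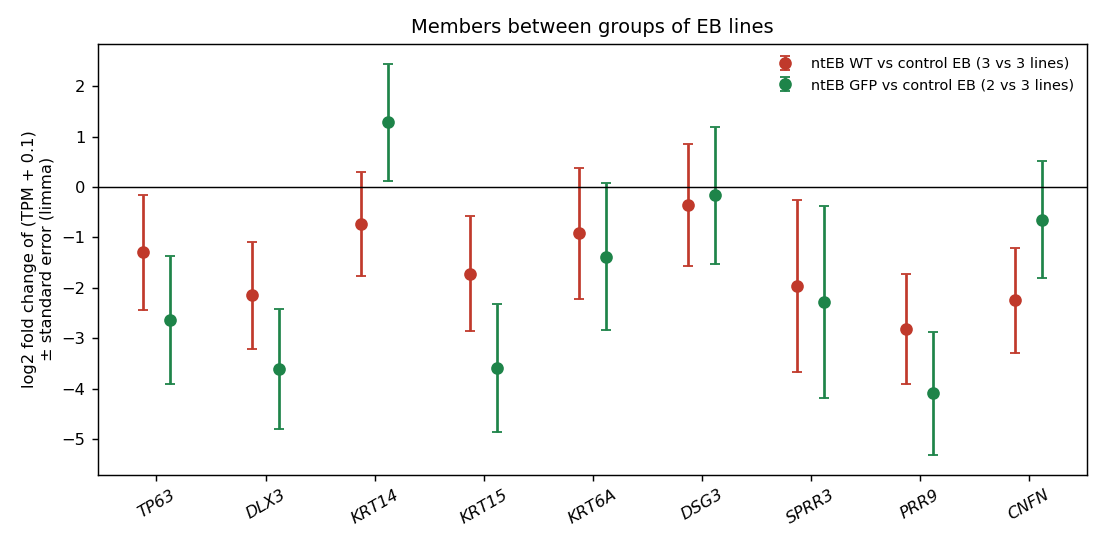
Log2 fold change of (TPM + 0.1) for the 9 members tested, with limma standard errors, in ntEB WT (red, 3 lines) and ntEB GFP (green, 2 lines), each against the same 3 control EB lines. PRR9, DLX3 and KRT15 lie farthest below 0 in ntEB GFP, and none of the 9 passed the adjusted threshold in either comparison.

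Both comparisons use the same control EBs, so their values are set side by side and no more. Between ntEB WT and ntEB GFP, the members had adjusted p-values of 0.732 to 0.963 by limma. CNFN was the 1 member of 9 lower in every WT line than in either GFP line, where 11.1% of all genes were so. Without GFP #24, KRT14, KRT6A, DSG3 and CNFN were lower in every WT line than in GFP #50, where 16.1% of all genes were, the median over the members turned from 0.47 to -1.42, and 0 of the 9 were called.

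The level of epithelial transcripts also differed between the EBs. CDH1 (E-cadherin), the adhesion molecule of epithelia, was 468, 426 and 553 TPM in control EBs #13, #37 and #17, 50.0, 128 and 583 TPM in ntEB WT #30, #53 and #61, and 89.8 and 208 TPM in GFP #24 and #50. It was thus high in the controls and in WT #61, as TP63 was. A ratio to CDH1 was chosen after these values were seen and is given as a description. Pluripotent cells also make CDH1, which bears on GFP #24.

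Per 1000 TPM of CDH1, TP63 was 9.92 to 13.2 in control EBs, 9.15 to 20.1 in the ntEB lines other than GFP #24, and 2.79 in GFP #24. KRT15 was 52.1 to 71.6 in control EBs, 48.3 to 77.1 in the same 4 ntEB lines and 5.40 in GFP #24. Over the 7 libraries without GFP #24, the highest level exceeded the lowest 25.6-fold for TP63 and 11.8-fold for KRT15, and per CDH1 2.20-fold and 1.60-fold. With GFP #24 included, the ratios spanned 7.21-fold for TP63 and 14.3-fold for KRT15. Without it, both ratios varied less than the levels themselves, with TP63 highest per CDH1 in WT #61 at 20.1. Over all 16621 genes, the ratio narrowed the range for 8.42%. A range as narrow as that of TP63 was found for 0.548%, and as narrow as that of KRT15 for 0.193%. CDH1 and the omission of GFP #24 were both chosen after these values were seen, so these shares are a description and support nothing. The mean log2 level of 10 simple epithelium genes was also used as the reference, but CDH1 is among them, so it is not independent. Against that mean, the log2 range over the same 7 libraries was 1.31 for TP63 and 0.83 for KRT15, beside 4.41 and 3.51 for their own levels. Ranges as narrow were found for 1.76% and 0.403% of all genes.

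For SPRR3, PRR9 and DLX3 the ratio also narrowed the range, but less far. Per CDH1, SPRR3 was 383 to 738 in control EBs and 73.0 to 1388 in the same 4 ntEB lines, with WT #30 lowest. Over the 7 libraries the highest SPRR3 level was 135-fold the lowest, and 19-fold per CDH1. PRR9 went from 46.3-fold to 13.9-fold and DLX3 from 19.9-fold to 6.00-fold. For KRT14, KRT6A, DSG3 and CNFN the ratio widened the range, to 112-fold, 17.4-fold, 72.5-fold and 84.2-fold. KRT14 was highest per CDH1 in GFP #50 (28.2) and DSG3 in WT #30 (51.6).

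**Figure D3:**
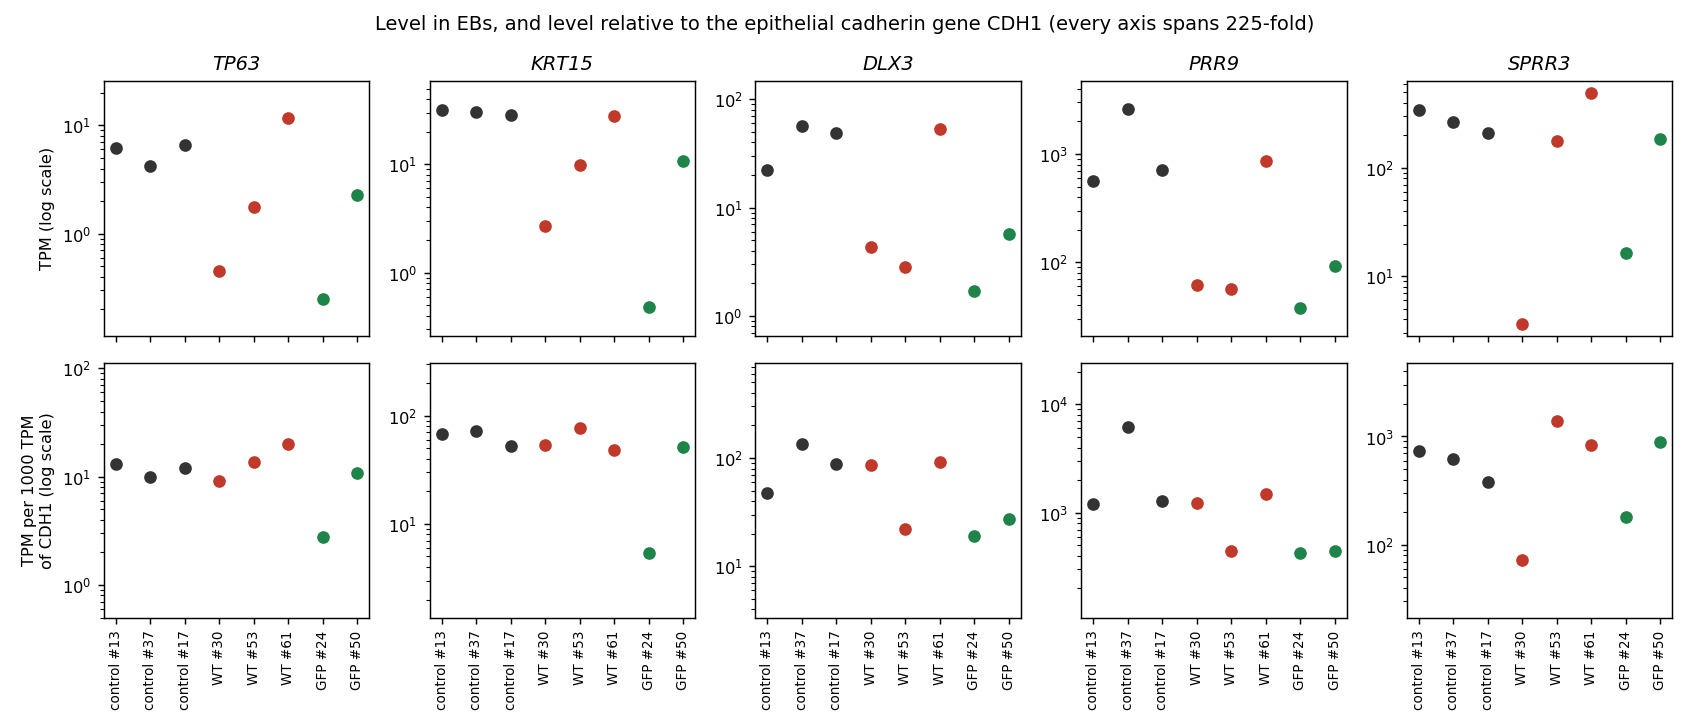
TPM (upper row) and TPM per 1000 TPM of CDH1 (lower row) of 5 members in the 8 EB libraries, on log axes of equal span, with controls in black, WT in red and GFP in green. TP63 and KRT15 vary less in the lower row than in the upper row, with GFP #24 lowest at 2.79 and 5.40, whereas SPRR3 stays low in WT #30.

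Marker lists of other cell types moved with the members, and their part in the differences was not tested. The 11 simple epithelium genes summed to 6521 to 8177 TPM in control EBs, to 1341, 2663 and 8121 TPM in ntEB WT #30, #53 and #61, and to 3074 and 4355 TPM in GFP #24 and #50, with 10 of 11 at 1 TPM or more in every library. Of these genes, KRT18, KRT8 and EPCAM (1017 to 1809 TPM) were already high in the ESC and ntESC lines. Their sum alone therefore does not mark a simple epithelium in the EBs. The 13 amnion and trophoblast genes summed to 1059 to 5455 TPM in control EBs, 419 to 2125 TPM in ntEB WT and 273 and 783 TPM in ntEB GFP. Both sums were high in the controls and in WT #61. CGA, the glycoprotein hormone alpha subunit made by trophoblast, was highest in control EB #37, as PRR9 and CNFN were.

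The 12 mesenchyme genes went the other way. They summed to 6751 to 12146 TPM in control EBs, 46734 and 23356 TPM in ntEB WT #30 and #53, 2193 TPM in WT #61, and 14454 and 16582 TPM in GFP #24 and #50. The 8 endoderm and liver genes were 13.9 to 261 TPM in control EBs, 912, 1018 and 48.3 TPM in ntEB WT #30, #53 and #61, and 954 and 1815 TPM in ntEB GFP #24 and #50. Their part was likewise not tested.

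**Figure D4:**
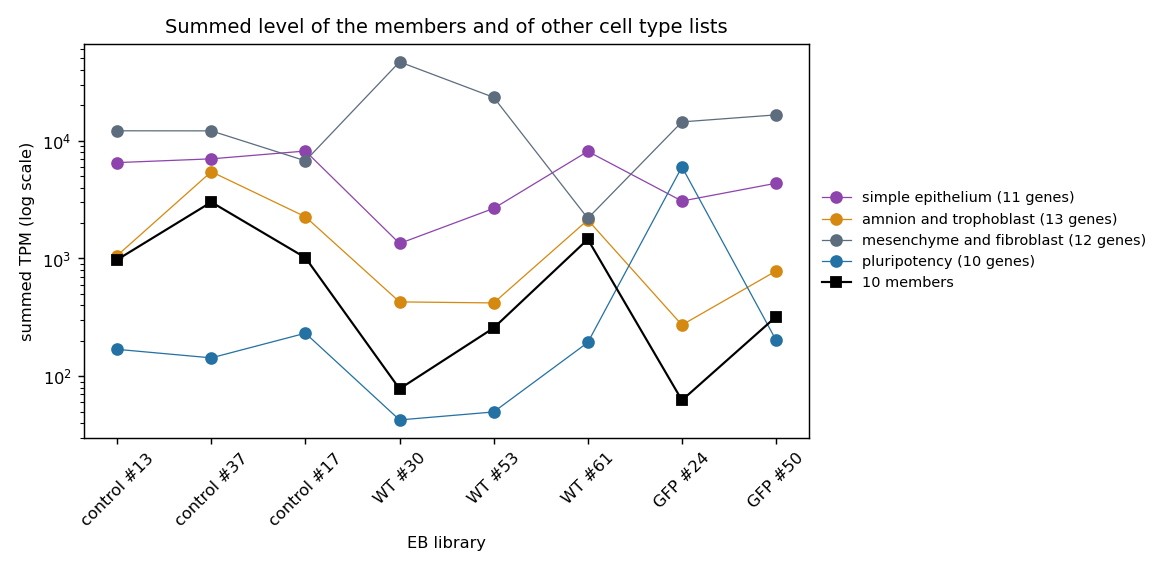
Summed TPM on a log axis of the 10 members (black squares) and of 4 marker lists in each EB library. The members, the simple epithelium genes and the amnion and trophoblast genes are high in the controls and in WT #61, the mesenchyme genes peak in WT #30 at 46734 TPM, and the pluripotency genes peak in GFP #24 at 5996 TPM. The simple epithelium list includes KRT18, KRT8 and EPCAM, which were already high in the stem cell lines.

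Other genes of the stratified programme were taken from lists fixed by function. Of the 23 further epidermal regulators, 21 were tested, and 0 were called in ntEB WT or ntEB GFP against control EB, with median log2 fold changes of -1.31 and -0.71. GATA3, a factor of epidermis and trophoblast, was 281, 369 and 444 TPM in control EBs #13, #37 and #17, 30.4, 93.9 and 469 TPM in ntEB WT #30, #53 and #61, and 12.0 and 113 TPM in GFP #24 and #50. Its order of lines was nearly that of TP63, with WT #61 highest and GFP #24 lowest. TFAP2C, which acts in early surface ectoderm and trophoblast, ranged from 142 to 198 TPM in control EBs and from 22.5 to 208 TPM in ntEBs.

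The basal layer and hemidesmosome list (15 tested) had medians of -0.42 and 0.03, and the integrin gene ITGA6 was 115 to 125 TPM in control EBs and 26.9 to 311 TPM in ntEBs. The suprabasal keratins (4 of 17 tested) had medians of -1.31 and -1.85. KRT80, a keratin of differentiating cells, was 69.7 to 94.0 TPM in control EBs and 2.96 to 47.0 TPM in ntEBs. KRT10, a suprabasal keratin of the epidermis, was 19.6 to 26.7 TPM in control EBs and 16.4 to 33.1 TPM in ntEBs, so its groups overlapped, and KRT23 was 8.33 to 23.5 TPM and 0.967 to 10.7 TPM. The desmosome list (11 tested) had medians of -0.81 and -0.53, and the cornified envelope list (19 of 53 tested) of -0.83 and 0.05. The envelope list was split, with 5 genes above 0 and 14 below in ntEB WT, and 10 above and 9 below in ntEB GFP. In these lists too, 0 genes were called in either comparison. Without GFP #24 the medians in ntEB GFP were -0.91 for the epidermal regulators, 0.75 for the basal list, -0.85 for the suprabasal keratins, -0.19 for the desmosome list and 0.34 for the cornified envelope list.

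Among the genes most like the mean of the members over the 8 EB libraries, by Pearson r of log2 values, were LGALS10A (r 0.982), BEAN1 (0.972), FGFBP1 (0.971) and IER5 (0.967). They are a description over 8 libraries that differ in their cell type markers, and without GFP #24 their r was 0.941 to 0.982. Among the members, KRT15 was closest to that mean (r 0.908) and CNFN farthest from it (r 0.333), and without GFP #24 KRT15 was at r 0.841 and DSG3 farthest at r 0.080. Each tested member is itself part of that mean, so its r is partly with itself. TP63 varied with KRT15 (r 0.948) and SPRR3 (r 0.890), but not with KRT14 (r -0.052) or DSG3 (r 0.071). Without GFP #24 these were 0.947, 0.881, -0.18 and -0.57.

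Before differentiation, 4 members passed the filter in stem cells. CNFN was 4.34 to 6.40 TPM in the 4 control ESC lines (5.44 ± 0.869, SD), 1.58 to 1.81 TPM in the 3 ntESC WT lines (1.72 ± 0.116) and 5.28 to 9.02 TPM in the 4 ntESC GFP lines (6.48 ± 1.73). All WT lines were below every other stem cell line. CNFN fell by 1.60 on the log2 scale in ntESC WT (SE 0.23, limma adjusted p = 0.0279), 1 of 4 members called lower. Of the 16118 genes tested, 0.0745% were called lower and 7.59% lay lower without overlap. The members were chosen by their measured TPM, stem cells included, so this call is a description and supports nothing. The call was lost without control ESC #13 (0.0873), #15 (0.0977) or #37 (0.0674), ntESC WT #30 (0.0689) or #53 (0.122), or ntESC GFP #50 (0.0603). Over all 11 fits that left out 1 library, its log2 fold change stayed between -1.70 and -1.51.

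PRR9 was 0 to 0.313 TPM in control ESCs, but 7.19 TPM in ntESC WT #30, 2.39 TPM in WT #53 and 2.44 TPM in GFP #50, and 0 to 0.234 TPM in the other 4 ntESC lines. Its log2 fold change in ntESC WT was 2.75 (SE 1.26, limma adjusted p = 0.264), and 4.00 without WT #61 (adjusted p = 0.0479), a setting in which 2900 of 16118 genes were called. PRR9 passed the filter in stem cells through the 3 lines in which it was high, so this p supports nothing. The 3 lines with traces of PRR9 as stem cells were not those with the highest PRR9 as EBs. In ntESC GFP against control ESC 0 of the 4 members were called, with 0.441% of all genes called. By the 2-fold rule on group means, 3 of the 4 differed in ntESC WT and 1 in ntESC GFP, against 12.5% and 6.17% of all genes.

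**Figure D5:**
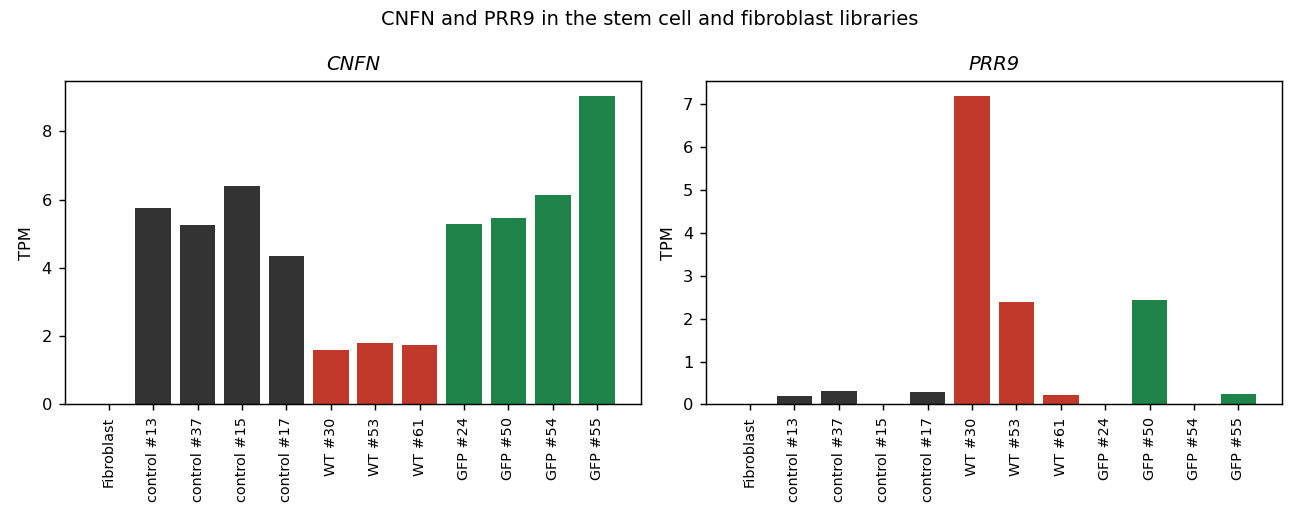
TPM of CNFN (left) and PRR9 (right) in the fibroblast and 11 stem cell libraries, 1 bar per library. CNFN is 1.58 to 1.81 TPM in the 3 WT ntESC lines, at least 4.34 TPM in the other stem cell lines and 0 in the fibroblast library. PRR9 exceeds 1 TPM in WT #30, WT #53 and GFP #50.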

How the data were processed

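Stranded poly(A) libraries were sequenced as paired reads on either of 2 instrument models. The authors trimmed reads with fastp, aligned them with STAR to calJac4 (unique hits, no more than 1 mismatch), obtained gene counts with featureCounts, and deposited TPM with the sex chromosomes left out. TPM is the only unit used here. Not given in the sources used here were the instrument of each library, the gene annotation and whether counting used strand.

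The log2(TPM + 0.1) values of genes averaging 0.5 TPM or more entered lmFit and trended eBayes of limma 3.58.1 (R 4.3.3), in 1 fit for the 8 EB libraries, 1 for the 11 stem cell libraries and 1 for all 19, with Benjamini-Hochberg adjustment and a threshold of 0.05. The 3 genes per table that RefSeq places on sex chromosomes were dropped, and 19656 EB genes matched RefSeq names. The fits were checked on simulated data. The members, lists and tests were chosen with earlier results of these data known. Genes outside the members were named from among the 3 with the highest mean of their list, or, where stated, after their values were seen. Not all of these are reported. Left out were, among others, MSX2, CD151, ITGA3, PERP, DSP, DSG2, CSTB, SFN and LYPD3. NANOG, KRT13 and CDH1 were named after their values were seen. The same line number marks the same cell line at both stages, so EB and stem cell libraries are paired by design (correlation of deviations 0.0355 to 0.262). Alternatives were a pseudocount of 1, no filter, quantile normalization, a 2-fold rule on group means, the line as a block, and leaving out each library. A fit of the 16 paired libraries without the line term, the CDH1 ratio and the descriptions without GFP #24 were added after seeing the data. Not every gene among those most like the members is reported here.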

Additional observations from a re-analysis of the deposited data

Results flagged for a closer look

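DLX3 stood at 17.0 TPM in the single fibroblast library, which enters no comparison between groups. That is above its highest stem cell level (1.13 TPM) and near the lowest control EB level (22.1 TPM), while SPRR3, PRR9 and CNFN were listed at 0 in the same library. With 1 fibroblast culture there is no replicate check.

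PRR9 in ntESC GFP #50, at 2.44 TPM, lay far from the other 3 ntESC GFP lines, which held 0 to 0.234 TPM. It was 1 of 20 groups of 4 or more libraries examined in this way, and chance alone gives about 1 in 20.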

How the results depend on the processing

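No member was called between EB groups under limma in any setting, and by the 2-fold rule on group means, which ignores the spread between lines, 4 of 9 differed in ntEB WT, 8 in ntEB GFP and 8 between ntEB WT and ntEB GFP. Over all genes, that rule gave 2534, 4482 and 3433 genes, and in stem cells 2016 (3 members) in ntESC WT and 994 (1 member) in ntESC GFP. Leaving out 1 library gave 0 to 126 genes in ntEB WT, 0 to 575 in ntEB GFP and 0 to 634 between them, the highest without WT #61, GFP #50 and GFP #50. It gave 9 to 2900 (members 0 to 2) in ntESC WT and 19 to 118 in ntESC GFP, the highest without WT #61. A pseudocount of 1 gave 1 gene in ntEB GFP and 1 between the ntEB groups, and quantile normalization 0 in ntEB WT. It also shifted the all-gene median (log2) from 0.20 to 0.0029 in ntEB GFP, and from -0.22 to 0.035 between the ntEB groups. For CNFN in ntESC WT, a pseudocount of 1 (adjusted p = 0.0602) and quantile normalization (0.0505) each left 0 members called, and no filter left 0.0408.

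From stem cell to EB, a rise for which the members were chosen, the replicate block in 16 libraries gave 8024 genes and 7 members in controls, 6757 and 4 in WT, and 2089 and 3 in GFP, where the main fit gave 4929 and 4, the 16 libraries without the line term 1986 and 2, quantile normalization 2 members, and leaving out 1 library 563 to 7055 genes and 0 to 7 members. Leaving out 1 library gave 8108 to 10224 genes (7 to 9 members) in controls and 6274 to 8189 (4 to 5) in WT.

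Direction turned for DSG3 (ntEB GFP, 0.28) and KRT6A (between ntEB groups, -0.17) at a pseudocount of 1, DSG3 (between ntEB groups, 0.43) under quantile normalization, and DLX3 (ntESC GFP, -0.0015) at a pseudocount of 1. On leaving out 1 library, log2 fold changes crossed 0 for DSG3 (-0.86 to 0.48) and SPRR3 (-3.38 to 0.14) in ntEB WT; for KRT14 (-0.44 to 3.01), KRT6A (-3.84 to 1.08), DSG3 (-2.54 to 2.22) and CNFN (-1.72 to 0.38) in ntEB GFP; between ntEB groups for TP63 (-0.032 to 2.72), KRT15 (-0.23 to 3.98), KRT6A (-2.0 to 2.93), DSG3 (-2.58 to 2.18), SPRR3 (-1.42 to 2.42) and PRR9 (-0.015 to 1.96); and in ntESC GFP for DLX3 (-0.20 to 0.24), KRT15 (-0.20 to 0.66) and PRR9 (-0.83 to 0.72). The cause was not tested.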
